A study of Homo sapiens with 9 samples.

Results

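The regions described are the H3K27ac peaks of RPMI-8402, an established line of human T-ALL (T-cell acute lymphoblastic leukaemia), a cancer of immature T cells. H3K27ac is an acetyl mark on the tail of the histone H3, and the peaks come from 1 chromatin immunoprecipitation library against it. Every peak of its deposited list that lies on an autosome, X or Y was kept. This gave 9857 of the 19111 peaks in the 9 per-library lists of the series. The other 8 libraries used an antibody against the transcription factor NKX2-1 in the same line, 4 from wild-type (WT) clones and 4 from clones that the series text calls NKX2-1 knockouts. For the H3K27ac library the genotype is given as NKX2-1 without a clone. The genotype field of the knockout libraries also reads NKX2-1, and that of the WT libraries reads WT. Whether the cells of the H3K27ac library were edited is not stated and is unknown here. With no replicate and no read numbers in the list, conditions could not be compared by a test and the depth is unknown. A gene without a peak is a gene at which none was called at that depth.

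The acetyl group is placed by the acetyltransferases EP300 and CREBBP and neutralises a positive charge on the histone tail. It marks promoters and enhancers in use and is read by bromodomain proteins. Enhancers that carry the mark differ between cell types far more than promoters do, and TAL1-positive T-ALL depends on a circuit of TAL1, LMO proteins, GATA3, RUNX1 and MYB. RPMI-8402 is known for a translocation that joins LMO1 to the T-cell receptor alpha/delta locus.

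Gene starts under H3K27ac peaks differed in base composition, which the peak list itself does not use. The 200 bases before a RefSeq start of 6 genes are shown to let the sequences be compared. Where a gene had several starts, that with the highest peak within 1 kb was taken. For LCK and TAL1 this is an inner start, downstream of the outermost end of the gene. They are 2 T-cell signalling genes with few CpG dinucleotides (LCK and CD3D), 3 genes of the leukaemia circuit (LMO1, TAL1 and MYB), and ALB, a liver gene with no peak within 10 kb. The sequences are RefSeq windows of GRCh38.p14, printed 5′ to 3′ along the gene, and capitals mark each CpG.
LCK (chr1:32273921-32274120, plus strand): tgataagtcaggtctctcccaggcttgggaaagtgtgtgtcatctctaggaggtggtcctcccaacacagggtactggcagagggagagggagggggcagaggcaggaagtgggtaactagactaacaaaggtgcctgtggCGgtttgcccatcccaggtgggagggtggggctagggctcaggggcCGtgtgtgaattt
CD3D (chr11:118342706-118342905, minus strand): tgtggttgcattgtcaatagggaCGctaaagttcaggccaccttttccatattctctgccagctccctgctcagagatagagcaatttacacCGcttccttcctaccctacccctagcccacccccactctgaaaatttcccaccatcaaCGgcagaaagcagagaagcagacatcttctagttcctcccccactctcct
LMO1 (chr11:8268788-8268987, minus strand): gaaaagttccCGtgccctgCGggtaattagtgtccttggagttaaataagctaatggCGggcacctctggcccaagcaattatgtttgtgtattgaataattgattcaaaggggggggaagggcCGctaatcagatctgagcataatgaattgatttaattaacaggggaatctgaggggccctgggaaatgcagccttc
TAL1 (chr1:47231716-47231915, minus strand): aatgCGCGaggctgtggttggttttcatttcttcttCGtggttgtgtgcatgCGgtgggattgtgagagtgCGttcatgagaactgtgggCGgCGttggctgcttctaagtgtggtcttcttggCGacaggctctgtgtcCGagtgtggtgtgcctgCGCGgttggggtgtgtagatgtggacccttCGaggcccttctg
MYB (chr6:135181108-135181307, plus strand): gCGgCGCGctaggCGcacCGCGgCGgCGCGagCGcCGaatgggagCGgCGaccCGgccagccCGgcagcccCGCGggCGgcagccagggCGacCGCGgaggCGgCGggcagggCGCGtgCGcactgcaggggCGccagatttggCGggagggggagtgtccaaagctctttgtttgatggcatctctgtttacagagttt
ALB (chr4:73404087-73404286, plus strand): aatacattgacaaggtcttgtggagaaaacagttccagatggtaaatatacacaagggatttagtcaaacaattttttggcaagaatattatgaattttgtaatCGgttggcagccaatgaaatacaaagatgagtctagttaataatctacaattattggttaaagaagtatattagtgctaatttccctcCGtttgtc

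The MYB sequence held 28 CpG and TAL1 held 12, whereas LCK held 2, CD3D 3, LMO1 4 and ALB 2. The G+C share of the 200 bases ran from 32.0% in ALB to 73.0% in MYB. The highest peak within 1 kb of these starts had a fold enrichment of 14.7 at MYB, 10.2 at LCK, 9.36 at LMO1, 8.08 at CD3D and 7.16 at TAL1. LCK, with 2 CpG, thus carried a higher peak than TAL1, with 12. Fold enrichment is the authors' value, the signal at the summit over the background of the peak caller.

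RefSeq windows of 300 bases, from 250 before to 50 after a start, were found for 15741 protein-coding genes and gave 22054 distinct windows. A peak overlapped the 1 kb to either side of 4256 starts (19.3%). CpG frequency was expressed as the observed number of CpG over that expected from the C and G content. The share of starts with a peak rose in every step of this ratio. It was 2.99% (89 of 2978) below a ratio of 0.2 and 36.9% (884 of 2393) at 1.0 or more, with 95% Wilson intervals of 2.44 to 3.66 and 35.0 to 38.9. The median ratio was 0.874 at starts with a peak and 0.677 at starts without. Among starts with a peak, the height followed CpG frequency less: the median fold was 6.76 in the lowest class and 6.92 in the highest. The ratio was 0.6 or more at 85.7% of the 1075 starts of lowest fold (up to 5.72) and at 86.5% of the 1115 of highest fold (8.39 or more). Some windows of 1 gene overlap each other, so they are not independent. Wilson intervals here cover counting error only.

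Short motifs were counted in the same windows on both strands. The ETS motif CCGGAAG stood in 12.8% of all windows, in 20.9% of those with a peak and in 10.8% of those without. Among windows with a CpG ratio of 0.6 or more the shares were 22.9% and 16.8%. The RUNX motif TGTGGT was found in 11.3% of all windows, 9.66% with a peak and 11.7% without, but in the CpG-rich windows the order turned, to 8.56% and 7.58%. The GATA motif AGATAA was found in 7.93% of all, 4.65% with a peak and 8.71% without, and within the CpG-rich windows in 3.75% and 3.63%. For the E-box CANNTG the shares were 65.1%, 56.2% and 67.2%, and for CAAGTG, the core bound by NKX2-1 and itself an E-box, 10.4%, 6.81% and 11.2%. The E-box kept its order in the CpG-rich windows (53.8% and 58.1%), as did CAAGTG (5.86% and 8.20%). The MYB motif AACNGTT stood in 3.05%, 2.70% and 3.13%, and in the CpG-rich windows the order turned, to 2.56% and 2.11%. The TATA box TATAAA was less frequent at starts with a peak (5.66%) than without (10.4%), but in the CpG-rich windows the shares were 4.83% and 4.51%. It stood at 10.8% of starts with a peak of 10-fold or more. Among the sequences shown, TAL1 held TGTGGT 3 times, at positions -188, -90 and -56 from the start, and CD3D held it once, at -200. ALB, which had no peak, held the MYB motif once, at -173. A match gives the presence of these letters only.

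Most peaks were narrow and of low enrichment. The median width was 391 bp, with quartiles of 266 and 652 bp and a range from 200 to 10442 bp. The median fold enrichment was 6.19, with quartiles of 5.45 and 7.42 and a range from 3.74 to 27.7. Together the peaks covered 5616 kb. A fold of 10 or more was reached by 791 peaks (8.02%), 15 or more by 131 and 20 or more by 18. The 262 peaks of 2 kb or wider made up 2.66% of all peaks and 14.2% of the covered length, and their median fold was 13.3, against 5.45 for the 3234 peaks under 300 bp. Width and fold rose together across the 9857 peaks (Spearman's rho = 0.707), which share 1 library and 1 background. The lowest deposited −log10 q was 2.10, and 57.4% of peaks lay below 5. The fold took few distinct values at the low end: 2946 peaks (29.9%) had 1 of 5 values, from 5.21 to 6.19.

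**Figure D1:**
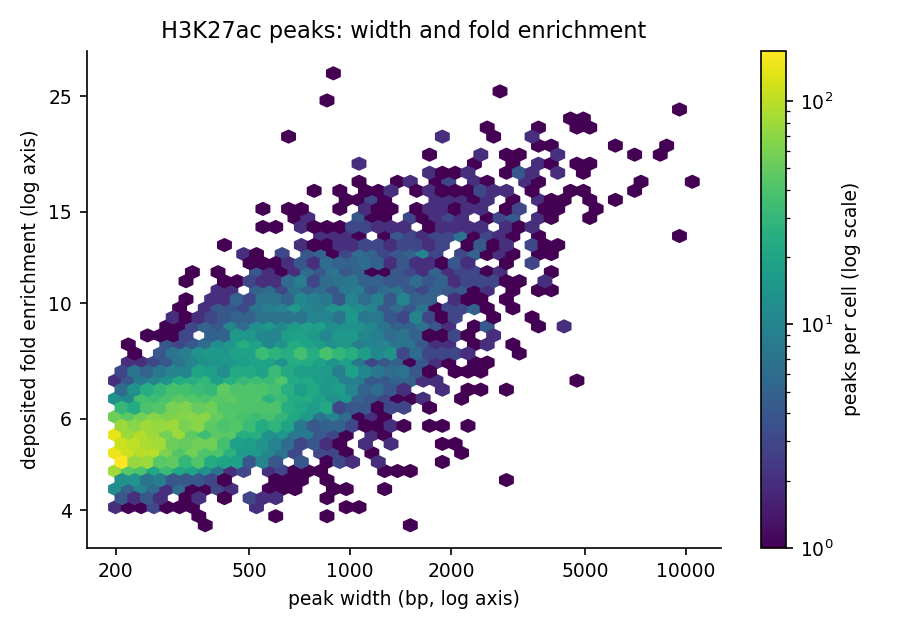
Width (x axis, bp, log) and deposited fold enrichment (y axis, log) of the 9857 H3K27ac peaks; colour gives the number of peaks per hexagon on a log scale. The densest hexagons lie near 200 bp at 5- to 6-fold, while the 262 peaks of 2 kb or wider have a median of 13.3-fold.

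Peaks were unevenly spread over the chromosomes. Chromosome 21 held 87.9 peaks per 100 protein-coding genes, chromosome 20 held 78.2 and chromosome 3 held 69.0. At the other end were chromosome 13 with 18.3, X with 24.1, 15 with 30.3 and 19 with 30.7, and Y had 0 peaks. The order depended on the measure. Per Mb of the span of its genes, chromosome 17 held most (9.08), chromosome 19 came second (7.60) and chromosome 21 held 4.51. Chromosomes 13 (0.543) and X (1.31) were low by this measure too. A peak overlapped the 1 kb to either side of a start in 3994 of 20033 protein-coding genes (19.9%). This share was high on chromosomes that also held many peaks per gene (26.8% on 20, 26.3% on 3 and 25.2% on 17) and low on 13 (8.28%) and X (7.67%). Chromosome 21, where peaks per gene were most numerous, stood apart at 18.4%. The median fold differed little, from 5.94 on chromosomes 10 and 16 to 6.43 on 4 and 14. Chromosome copy number was not measured here.

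**Figure D2:**
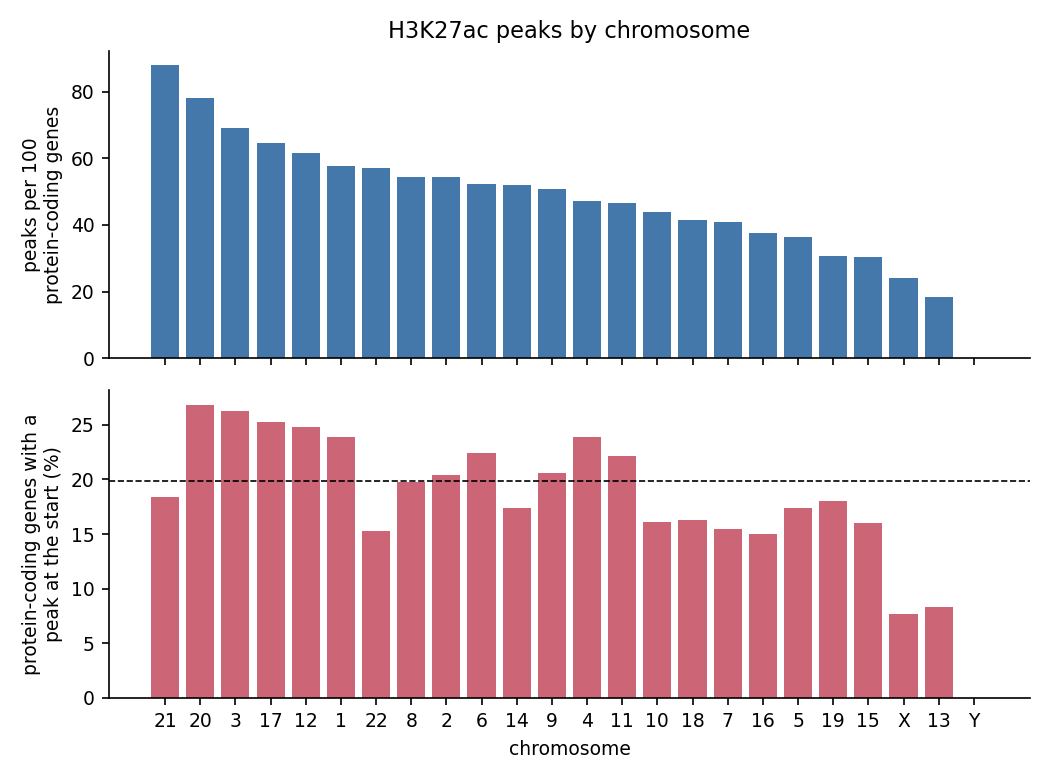
Upper bars give H3K27ac peaks per 100 protein-coding genes and lower bars the percentage of protein-coding genes with a peak at the start, for chromosomes in the order of the upper bars; the dashed line is the share over all genes (19.9%). Chromosome 21 is highest in the upper bars at 87.9 and stands at 18.4% in the lower, and X and 13 are low in both.

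At a finer scale, 1681 windows of 1 Mb held a peak, with a median of 3, and 86 windows held 20 or more. The fullest, with 93 peaks, lay on chromosome 14 from 106000001 to 107000000, in the variable segments of the immunoglobulin heavy chain locus. Next came 62 peaks on chromosome 3 from 195000001, around XXYLT1, and 60 on chromosome 7 from 142000001, at the T-cell receptor beta locus. Windows on chromosome 17 from 78000001 and chromosome 1 from 229000001 held 55 and 51. The window on chromosome 6 from 26000001, which holds histone genes, had 39 peaks with a median fold of 8.87, the highest median among the 15 fullest windows.

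Summits were grouped by their place. They lay within 1 kb of a protein-coding gene start in 4194 cases (42.5%, 95% Wilson interval 41.6 to 43.5), elsewhere in a gene in 3290 (33.4%, 32.5 to 34.3) and between genes in 2373 (24.1%, 23.2 to 24.9). The promoter table gave the start of 15841 genes; for the other 4192, either end of the gene was taken. Exons, introns and UTRs were not told apart. Peaks at starts were wider at the median (420 bp) than those in genes (359 bp) or between them (389 bp). Among the widest peaks the order differed: 2 kb or more was reached by 1.72% of peaks at starts, 2.92% in genes and 3.96% between genes. A fold of 10 or more was reached by 9.37%, 5.47% and 9.19%. Of the peaks between genes, 933 had a summit inside another annotated gene, such as a long non-coding RNA gene, and 1027 lay over 50 kb from any protein-coding gene.

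Where the strand of the nearest start was known, summits fell mainly into the gene. Of 3545 summits within 1 kb of such a start, 2661 (75.1%) lay downstream and 884 upstream, with a median of 266 bp downstream. The fullest stretch was 200 to 300 bp downstream, with 596 summits. Between 200 and 500 bp there were 1487 summits downstream and 363 upstream. Within 100 bp of the start there were 278 (7.84%).

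**Figure D3:**
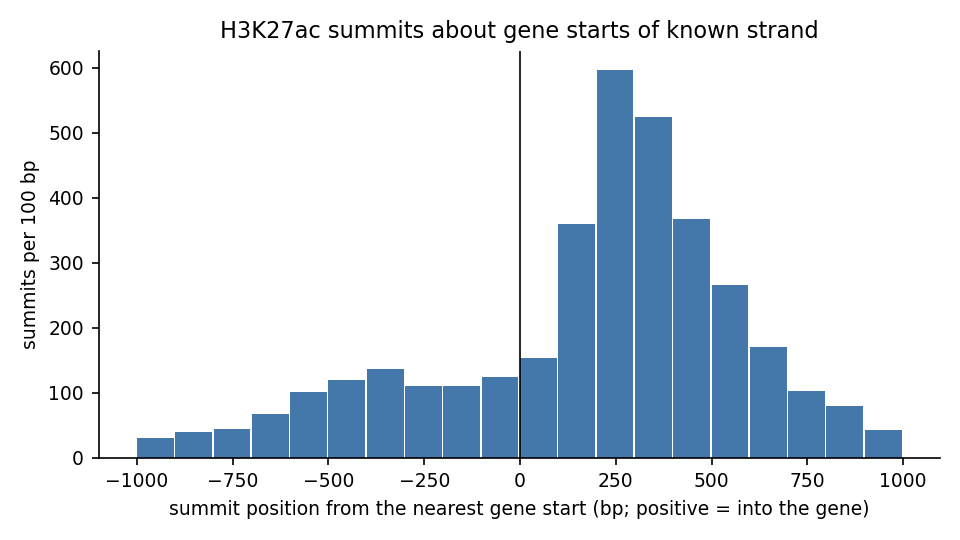
Number of H3K27ac summits per 100 bp (y axis) by distance from the nearest start of known strand (x axis, bp, positive into the gene), for the 3545 summits within 1 kb. The highest bar, 596 summits, stands at 200 to 300 bp downstream, and the bars on the upstream side reach 137.

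Single genes took up long runs of peaks. XXYLT1, a xylosyltransferase gene on chromosome 3, held 42 peaks within its body, the most of any gene, and none at its start. ZMIZ1, a coactivator of NOTCH1, held 34, GSE1 33, SCUBE1 33 and ETV6, an ETS-family repressor mutated in T-ALL, 29. GALNT2 held 28, NOL4L 27, RPTOR 27, RUNX1 25 and CDK6 23. Among these 10 genes RPTOR spans 422 kb and SCUBE1 146 kb, so SCUBE1 had 22.6 peaks per 100 kb of gene against 6.41 in RPTOR. In all, 4238 protein-coding genes (21.2%) had a peak in the body and 66 had 10 or more.

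The strongest peaks lay at loci of several kinds. The highest fold, 27.7, belonged to a peak of 904 bp on chromosome 1 (16904473 to 16905376), 9002 bp from CROCC. A peak within GALNT6, a gene of mucin-type glycosylation, followed with 25.7 (chromosome 12, 51367540 to 51370416). Also among the 10 highest was a peak of 9182 bp (23.5-fold) over the overlapping ends of GALNT6 and the bicarbonate transporter gene SLC4A8. The start of NRROS, which encodes a regulator of TGF-beta and reactive oxygen species, was another (22.9-fold). CXXC5, a zinc-finger gene, carried a peak of 22.3-fold in its body. The D2-J2 segments of the T-cell receptor beta locus also reached 22.3-fold, over 4837 bp (chromosome 7, 142795448 to 142800284). Further members of the 10 were a peak 306992 bp from STT3B (21.7-fold), a peak over IGHV3-13 in the heavy chain locus (21.6-fold) and the start of MZB1, a gene of B-lineage cells (21.3-fold). Of the 100 peaks of highest fold, 35 had their summit at a gene start, 23 in a gene and 42 between genes.

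The widest peak, 10442 bp, lay in the long non-coding RNA gene LINC02815 (chromosome 1, 229140167 to 229150608, 16.7-fold), 122128 bp from RAB4A. The next, 9740 bp, lay in TCF7, a factor required for T-cell commitment (chromosome 5, 134114923 to 134124662, 13.5-fold). A peak of 9063 bp (19.9-fold) overlapped the constant segment TRBC2 of the T-cell receptor beta locus, which a separate peak of 734 bp also overlapped. CDK6, a G1 kinase needed by T-ALL cells, had 8471 bp at a start (chromosome 7, 92829786 to 92838256, 19.4-fold). Peaks of 7372 bp and 7209 bp lay 111109 bp from CYRIA and 161166 bp from ETS2. ERG, an ETS factor of blood stem cells, carried 2 of the 10 widest, 6955 bp at an inner start (19.6-fold) and 6056 bp in its body (19.9-fold). Another of the 10, of 6196 bp, had its summit 4605 bp from TNRC18 and reached within 1 kb of a TNRC18 start. Of the 100 widest peaks and the 100 highest, 44 were in both sets.

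Peaks lying close together were joined, across gaps no wider than the usual setting for joining enhancers, which gave 5140 stretches, of which 3159 were lone peaks. Domains of 5 or more peaks numbered 336 and held 2679 peaks (27.2%) and 31.6% of the covered length. The largest, 25 peaks covering 29.6 kb, spanned 68.4 kb at LINC02815. SCUBE1 came second with 33 peaks covering 27.5 kb, and GALNT6 with SLC4A8 followed with 17 peaks covering 25.1 kb. In the T-cell receptor beta locus, which held several domains, that at the D2, J2 and constant segments held 5 peaks that covered 19970 bp, and ERG held 13 covering 17.9 kb. A domain of 21 peaks covering 17.4 kb lay in non-coding sequence on chromosome 14 (98166965 to 98210977), and the nearest protein-coding gene was BCL11B, 958310 bp away. Those at VDAC1 and TCF7 (14.3 kb covered), GSE1 (13.7 kb), MYT1 (13.6 kb) and NOL4L (13.1 kb) completed the 10 largest. Peaks in domains had the same median fold as the others (6.19) and almost the same median width (397 and 391 bp).

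The 5 genes taken as markers of the line all carried peaks; they were chosen with earlier results of these data known, so this is a description. RUNX1, the core blood factor named in the series title, carried 25 peaks between 4.70- and 11.6-fold. They fell mainly into groups along the gene: near the distal start (8.63-fold at 1.19 kb), at 19.8 to 37.8 kb, at 135 to 143 kb with the strongest peak, and around the inner start at 159 to 162 kb. MYB, a factor of proliferating progenitors, had a peak of 2881 bp and 14.7-fold just inside its start and another of 11.1-fold 556 bp before it. Beyond its 3′ end further peaks stood at 54.8 kb (13.4-fold, 1834 bp) and from 69.4 to 86.9 kb (5.01- to 7.16-fold). LMO1 had 4 peaks, 9.36-fold at 501 bp from the start and 10.6-fold at 6.43 kb inside the gene. TAL1 had a peak of 473 bp and 7.16-fold, 165 bp from an inner start and 785 bp from the outermost start, and no other within 50 kb of the gene. CD3E, a signalling chain of the T-cell receptor, had a peak of 1343 bp and 11.8-fold, 388 bp inside 1 end of the gene.

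**Figure D4:**
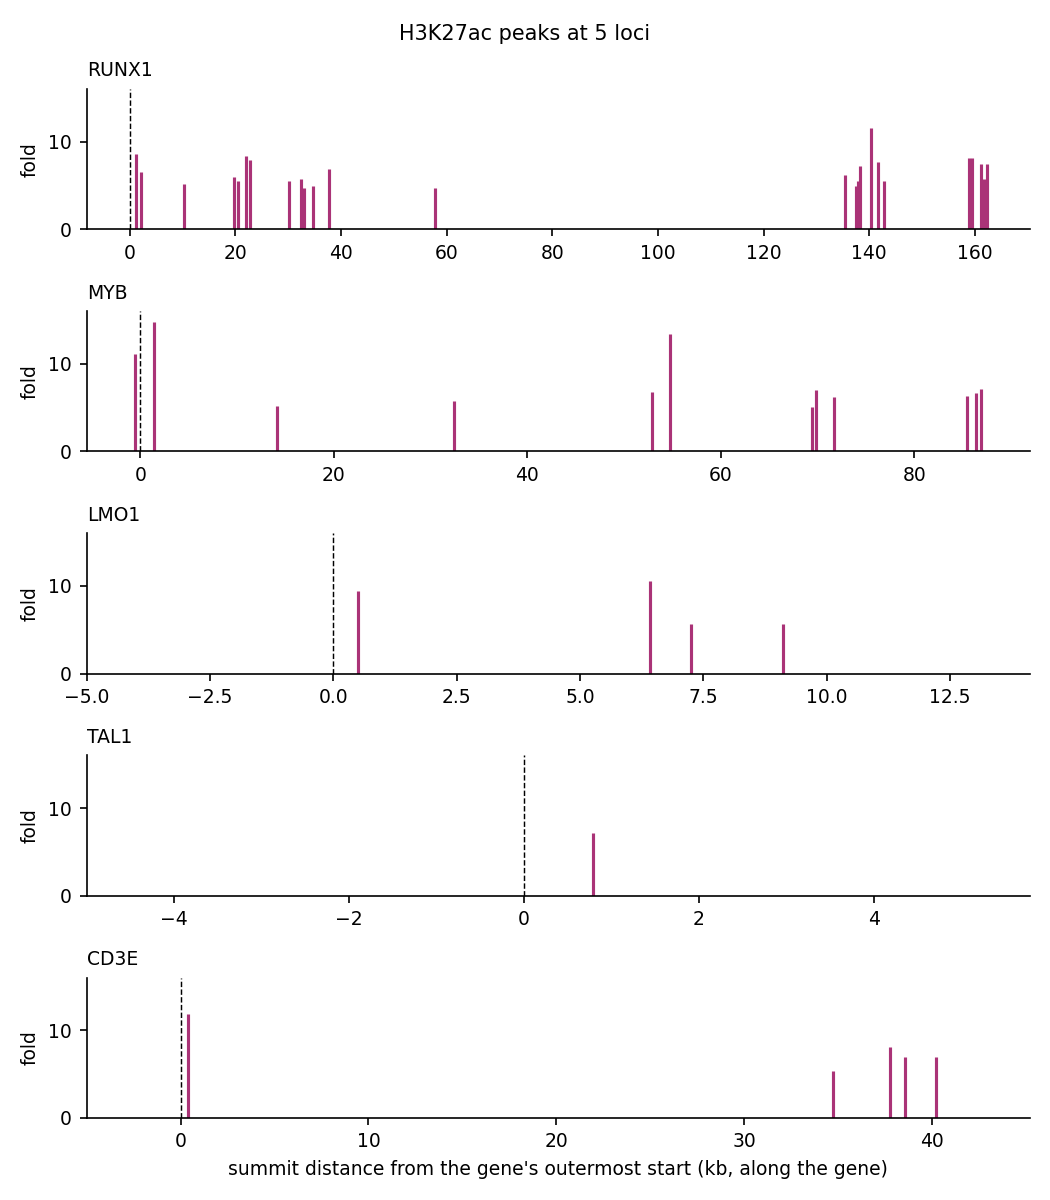
Deposited fold enrichment (y axis) of each H3K27ac peak within 50 kb of 5 genes, at the distance of its summit from the outermost start of the gene (x axis, kb, positive along the gene; for CD3E from the end of lower coordinate). RUNX1 shows 25 peaks in separate groups, MYB 12 with the 2 highest at 1.45 and 54.8 kb, and TAL1 1.

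The T-cell receptor and surface list was marked at a start in 10 of 24 genes (41.7%; all protein-coding genes 19.9%). Besides CD3E, the receptor chains CD3D (8.08-fold), CD3G and CD247 (6.92-fold each) were marked. The kinases that act first after receptor engagement were marked too, LCK at 10.2-fold with 3 peaks and ZAP70 at 11.3-fold over 3938 bp. RHOH, a GTPase that recruits ZAP70, reached 11.1-fold over 3910 bp, the adaptor LAT 8.39, TRAT1 5.21 and CD6 4.97, the last with a peak of 200 bp. No peak lay within 10 kb of the co-receptor genes CD4, CD8A and CD8B, of CD2, CD7, CD28, CD1A and CD1E, or of the receptor gene IL7R. CD5 and PRKCQ had 3 and 4 peaks within 10 kb but none at an end or start. Within 10 kb of the gene 14 of 24 had a peak, against 29.0% of all protein-coding genes.

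Among T-cell development factors 7 of 20 were marked at a start (35.0%; all protein-coding genes 19.9%). TCF7 was highest (15.7-fold), followed by TOX (13.8), IKZF1 (9.36), LEF1 and BCL11B (7.90 each), NOTCH1 (6.92) and GATA3 (5.70). The TCF7 value came from a peak of 1858 bp that also marked a start of the overlapping gene VDAC1. The summit nearest to a TCF7 start lay 1067 bp away, and that nearest to a VDAC1 start 271 bp. LEF1, the partner of TCF7, had 14 peaks within 10 kb and NOTCH1 had 12. Another 6 had peaks nearby but none at a start, among them ETS1 with 10 peaks up to 10.1-fold and DNTT, the terminal transferase of immature lymphocytes, with 4. No peak was called within 10 kb of the recombinase genes RAG1 and RAG2, or of RUNX3, ZBTB7B, SATB1 and DTX1.

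Genes of the TAL1 complex were marked in 10 of 12 cases (83.3%, 95% Wilson interval 55.2 to 95.3; all protein-coding genes 19.9%). Housekeeping genes had a share of 93.8%. The highest were MYB (14.7) and LYL1, a close relative of TAL1 (12.2-fold over 4089 bp), and the lowest were GATA3 (5.70), LDB1, which bridges LMO proteins (5.45), and CBFB, the partner of RUNX1 (4.95). TCF3 and TCF12, the E proteins that pair with TAL1, stood at 7.41 each. LMO2 and CBFA2T3 had no peak within 10 kb. The wider list of T-ALL driver factors had 7 of 18 marked (38.9%, 95% Wilson interval 20.3 to 61.4, against 19.9% of all protein-coding genes). HHEX was highest (17.7-fold over 3364 bp), MYCN stood at 7.41, NKX2-1 at 6.92 with 4 peaks, and MYC at 4.97 with a peak of 200 bp. TLX1, TLX3, NKX2-5, TAL2, OLIG2, BHLHE22, HOXA9, HOXA10 and MEF2C had none within 10 kb.

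Marker lists of other cell types and of mature effector, regulatory and NK cells were pooled. They were marked at a start in 7 of 114 genes (6.14%), and the T-cell lists in 17 of 44 (38.6%), with all protein-coding genes at 19.9%. The mature list includes genes of mature T cells, so the pool is not made of other cell types alone. The pooled lists were not alike, from 0 to 26.7% for B-cell genes. Among B-cell genes 4 of 15 had a peak (95% Wilson interval 10.9 to 52.0): IGLL1 (10.1-fold, 8 peaks within 10 kb) and VPREB1 (6.68), which together form the surrogate light chain, POU2AF1 (6.19) and BTK (5.21). The defining genes PAX5, EBF1, MS4A1 and CD79B had none within 10 kb. Of 15 myeloid genes only the protease gene CTSG was marked (8.14-fold), while SPI1 had 3 peaks in its body up to 7.72-fold and none at an end or start. Of 15 erythroid and megakaryocyte genes only NFE2 was marked, at 16.6-fold over 3598 bp, with GATA1, KLF1 and HBB bare within 10 kb. Transferrin (TF, 12.54-fold) was the 1 of 10 liver genes. The lists of 15 mature effector and NK, 14 lung and thyroid, 10 muscle, 10 neural and 10 epithelial genes had 0 marked, which for 15 genes allows a share of up to 20.4% by the Wilson interval. TG, the thyroglobulin gene, had 9 peaks in the body but none within 1 kb of an end or start, the nearest 41147 bp away. A domain of 7 peaks within TG also overlapped another gene, SLA, named after its position was seen. The TG peaks can therefore not be assigned to TG alone.

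Several genes of blood stem and progenitor cells were marked; they were picked after their values were seen. CD34 had 14 peaks within 10 kb and 11.1-fold at a start, and GFI1 had 5 and 10.8-fold. GATA2 carried 4.26-fold at a start and 21.1-fold in its body, and MSI2 had 22 peaks in its body up to 16.9-fold. KIT, FLT3, MEIS1 and HLF had no peak within 10 kb.

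Genes that every cell uses set a scale for what the library could call, beside the 19.9% of all protein-coding genes. Of 16 housekeeping genes 15 were marked at a start, from 5.70 (TBP) to 12.3 (EEF1A1), and HPRT1 had no peak within 10 kb. Cytosolic ribosomal protein genes were marked in 75 of 86 cases (87.2%), led by RPL27A (15.5) and RPL7A (13.8). Among the 11 others were RPL3, RPLP1, RPS24 and RPS25, and copies such as RPL3L and RPL10L. Chromosome Y held 0 peaks, and its genes RPS4Y1 and RPS4Y2 were also among the 11. Mitochondrial ribosomal protein genes had a lower share, 33 of 77 (42.9%), and proteasome subunit genes 23 of 39 (59.0%). Of 15 genes that write, read or erase acetylation or methylation of this lysine, 8 were marked, among them EZH2 and KDM6A, which write and erase methylation. BRD2 was highest (14.98-fold), HDAC7 reached 10.3, HDAC2 9.61 and EP300 8.79, and CREBBP, BRD3, KAT2B and SIRT1 had no peak within 10 kb.

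Gene families ranged widely about the 19.9% of all protein-coding genes. Histone genes, taken by symbol and including a few H1 genes outside the clusters, were marked in 60 of 72 cases (83.3%). Their median fold was 13.4, against 6.68 over all marked genes, and H2AC19 and H3C15 stood highest at 19.4. Neighbouring histone genes lie so close that 1 peak can mark several of them. Zinc-finger genes with ZNF symbols were marked in 142 of 509 cases (27.9%), with ZNF792 highest (17.4). HOX genes were marked in 3 of 39, HOXB4 (7.41), HOXB2 (6.68) and HOXA3 (5.94). Of 392 olfactory receptor genes 0 were marked (up to 0.970% by the Wilson interval), and 0 of 53 clustered protocadherin, 39 beta-defensin and 25 bitter taste receptor genes. Of 94 keratin-associated protein genes the 1 marked was KRTAP16-1 (6.19).

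**Figure D5:**
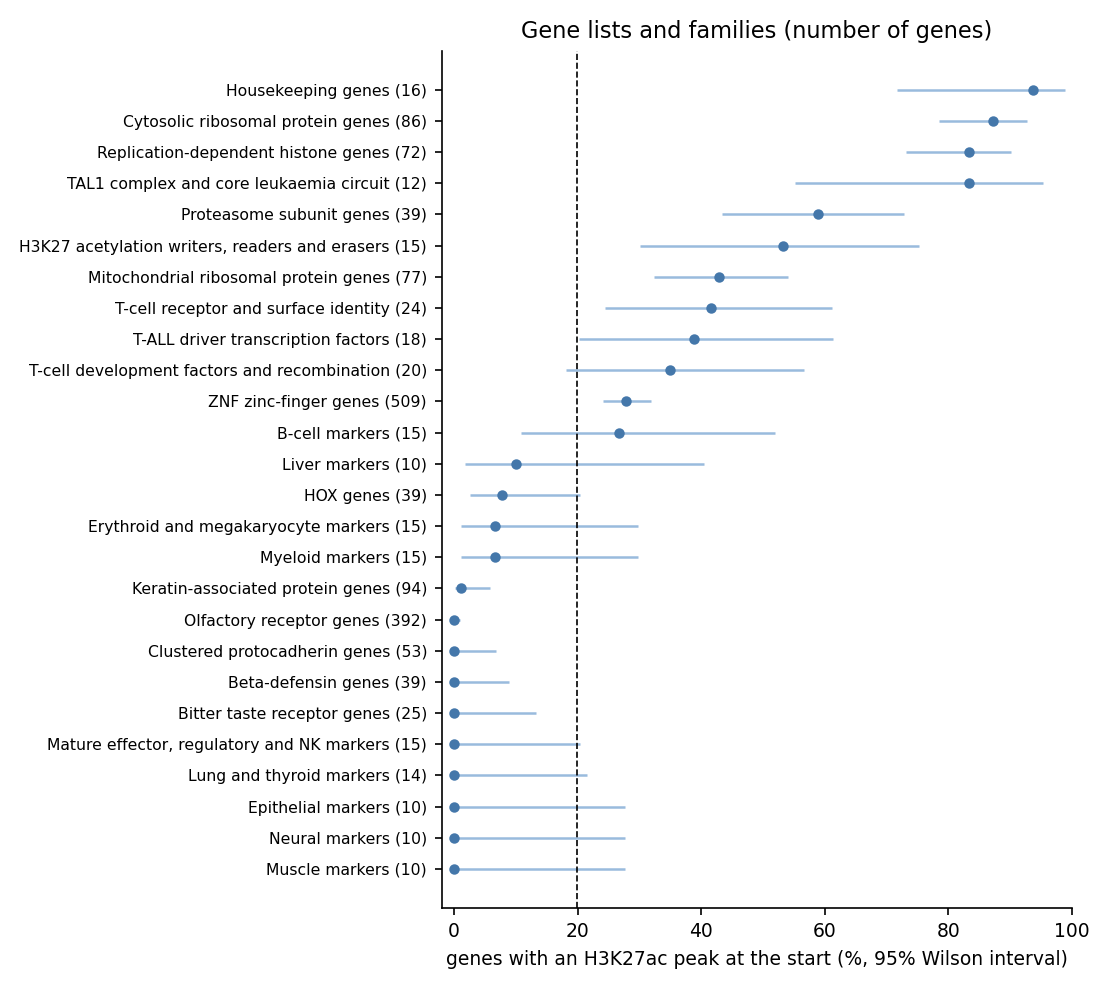
Percentage of genes with an H3K27ac peak within 1 kb of a start (points) with 95% Wilson intervals (lines) for each list or family, with its number of genes in brackets; the dashed line is the share over all protein-coding genes (19.9%). Housekeeping (93.8%), ribosomal protein (87.2%) and histone genes (83.3%) stand at the top, and families such as olfactory receptors at 0.

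The antigen receptor loci, which rearrange in lymphocytes, differed. The T-cell receptor beta locus (chromosome 7, 142299011 to 142813287) held 58 peaks covering 50524 bp, and 27 of its 61 V segments were overlapped by a peak. The alpha locus held 4 peaks, of which the strongest (10.3-fold, chromosome 14, 22435573 to 22436623) lay in TRD-AS1 within the delta locus, and the gamma locus held 2. The immunoglobulin heavy chain locus (chromosome 14, 105838401 to 106879844) held 101 peaks covering 72543 bp, up to 21.6-fold. A peak overlapped 35 of its 127 V segments, among them 22 of 48 IGHV3, 8 of 15 IGHV1 and 1 of 9 IGHV4 segments. The kappa light chain locus held 0 peaks and 0 of 76 V segments. The lambda locus held 3 peaks, all within 10 kb of VPREB1, and 0 of 73 V segments. V segments of 1 family are related in sequence, and how the authors treated reads that match several places is not given in the sources used here.

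Small RNA genes were marked in differing shares. A peak lay within 1 kb of 44 of 154 small nuclear RNA genes (28.6%, 95% Wilson interval 22.03 to 36.2), 39 of 443 tRNA genes (8.80%), 68 of 1199 small nucleolar RNA genes (5.67%) and 91 of 1913 microRNA genes (4.76%). The U1 genes RNU1-1 (20.7-fold), RNU1-3 (16.5), RNU1-4 (14.0) and RNU1-2 (12.7), which are near-identical copies on chromosome 1, were among the 5 highest small nuclear RNA genes. Among microRNA genes MIR142, known for its abundance in blood cells, lay under a peak of 3500 bp and 15.7-fold (chromosome 17, 58330313 to 58333812). It was picked after its value was seen, as the third highest of the 91. Its RefSeq mature sequences are printed with the seed, bases 2 to 8, in capitals.
hsa-miR-142-3p: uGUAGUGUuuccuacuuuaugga
hsa-miR-142-5p: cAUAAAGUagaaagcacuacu

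Overlap of the H3K27ac peaks with the NKX2-1 antibody lists was counted next. Those lists held 742 to 1144 peaks each, which caps the share of the H3K27ac peaks that can meet one. The WT libraries WT10, WT13, WT28 and WT30 overlapped 75, 2, 23 and 18 of the 9857 peaks, and the knockout libraries C12, C15, S04 and S36 overlapped 11, 5, 1 and 48. The ranges of the WT and knockout libraries overlap. In all, 113 H3K27ac peaks (1.15%) met a peak of any of the 8 libraries and 32 (0.325%) met the authors' combined list. These 32 had a median fold of 9.85 and a median width of 1430 bp, against 6.19 and 391 bp for the rest. Of the 32, 1 had its summit at a gene start, against 4193 of the other 9825 (42.7%). A wider peak can meet a listed region more easily, and width and fold rose together. Whether the medians reflect more than this was not tested. The strongest of the 32 lay 190144 bp from the nearest protein-coding gene and 192182 bp from a start of LEF1 (18.2-fold), in GALNT6 and in HHEX (17.7-fold each), 111109 bp from CYRIA (17.2) and in RHEX, a gene of erythroid expansion (16.9).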

How the data were processed

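Chromatin immunoprecipitation followed by sequencing was run by the authors on 9 libraries of RPMI-8402 cells; the H3K27ac library is described here, and of the NKX2-1 libraries only peak positions were used. Per the submitters' processing notes, FastQC, Bowtie2, SAMtools, MACS2 and deepTools were used on hg38; tool versions, peak-calling parameters, the control sample and read numbers are not given in the sources used here. For each peak the deposited list gives the position, summit offset, a score (10 times the −log10 q, cut to a whole number, unused), the fold enrichment as a ratio, and −log10 p (unused) and −log10 q values; 0 peaks overlapped each other.

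Coordinates are 1-based on hg38. Genes, starts and sequences came from RefSeq tables of GRCh38.p14, with 20033 protein-coding genes; all 213 symbols of the 15 lists matched. A gene was marked where a peak overlapped the 1 kb to either side of a start by 1 bp or more. Distances given from a single peak to a gene or start run from its summit. Domains held 5 or more joined peaks. The members and lists were chosen with earlier results of these data known. Genes named were list members and the 10 highest, widest or fullest items of each ranking, plus a few said to be picked afterwards. Samples were grouped by antibody and genotype field. No test was made. Some shares carry 95% Wilson intervals. Overlap code was tested on simulated intervals. Python 3.11.15, pandas 2.3.3, numpy 2.4.6, SciPy 1.17.1 and matplotlib 3.10.9 were used. Alternatives were a −log10 q of 5, other distances, all sequences and, added after seeing the data, starts in the promoter table alone. Some items in the rankings and lists are not reported here.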

Additional observations from a re-analysis of the deposited data

Results flagged for a closer look

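The list held 11 H3K27ac peaks on sequences outside chromosomes 1 to 22, X and Y. They stand out only as signal in data that no description above uses.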

How the results depend on the processing

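Raising the −log10 q to 5 left 4203 of 9857 peaks, 49.7% of summits near a start, 11.2% of protein-coding genes marked and 67 of 336 domains; 9 of the 10 largest domains still overlapped a domain. A distance of 2.5 kb gave 48.4% of summits and 20.9% of genes. Starts in the promoter table alone, chosen after seeing the data, gave 38.1% and 21.3%. Counting peaks in the gene body or within 10 kb raised the T-cell lists from 17 to 27 of 44 genes and the pooled marker lists from 7 to 21 of 114. Over all protein-coding genes this setting gave 5809 of 20033 (29.0%), against 19.9% at a start. The T-cell lists kept 14 and the other lists 5 at a −log10 q of 5. Using all sequences (9868 peaks), gaps of up to 5 kb (278 domains), domains without peaks near starts (249) or summits in place of overlaps (19.5% of genes) gave the other values tried. With 1 library, unknown depth and no replicate, a missing peak does not show that a gene lacks the mark.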
